A study of Mus musculus with 2 samples.

Results

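The genes described here are 41 genes of DNA replication and of the S phase of the cell cycle, out of 32544 genes counted. They were chosen by symbol from a list that spans the steps of replication, and all 41 were found, each as a single entry. The counts come from single-cell mRNA sequencing of murine bone marrow-derived monocytes (BMDMs), cells of young mice that were cultured with 50 ng/ml M-CSF, a survival and growth factor of the monocyte lineage, and 100 ng/ml RANKL, the signal that turns these cells towards bone-resorbing osteoclasts (OCs). One library carried the genotype label CONTROL, with no allele named, and the other LysM-Cre;Arid1afl/fl, called the mutant library from here on. Both cultures received both factors and were collected early after RANKL was added. LysM-Cre drives Cre recombinase from the lysozyme M gene in myeloid cells, where it removes floxed exons of Arid1a, which encodes a DNA-binding component of BAF complexes that move nucleosomes. Cells in which Cre did not act would remain in such a culture.

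Replication begins when the origin recognition complex, Cdc6 and Cdt1 load the ring-shaped Mcm2 to Mcm7 helicase onto DNA in G1 phase. Mcm10, Cdc45 and the GINS proteins then activate the helicase, and polymerases, the sliding clamp Pcna and its loader copy the strands. Most of these genes are transcribed under E2F factors at the passage from G1 into S phase, and monocyte precursors divide in M-CSF before they fuse into OCs.

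The control library held 6269 cells with 163618835 UMIs, and the mutant library 5663 cells with 131469887 UMIs, after cells with under 500 genes or over 10% mitochondrial UMIs were left out. A UMI (unique molecular identifier) marks 1 captured mRNA molecule. The median depth was 23978 UMIs in control and 21734 in mutant cells, and 7 cell barcodes occurred in both libraries. Arid1a stood at 51.9 counts per 1e6 UMIs (CPM) in control and 20.4 CPM in mutant cells, a log2 ratio of -1.35 (95% interval -1.41 to -1.28), and the 3′ reads can also come from a recombined allele. Of the 6 macrophage markers, Csf1r was at 256 and 402 CPM, Adgre1 at 147 and 534 CPM and Cd68 at 469 and 603 CPM in control and mutant. Fcgr1 was at 26.8 and 135 CPM and Mertk at 1.64 and 3.33 CPM. Lyz2, the most abundant of them, went the other way, at 10803 and 5432 CPM, and so did the sum of all 6, at 11702 and 7109 CPM. Markers of T and NK, B and erythroid cells each summed to under 2 CPM in either library. The sum of the 4 neutrophil markers was 264 CPM in control and 1981 CPM in mutant, and that of 4 stromal markers 4.42 and 11.4 CPM. Every interval below covers counting error only: with 1 library per genotype there is no replicate, so a difference between the libraries has no replicate check, and it cannot be told apart from a difference between animals or cultures. In summed counts, fewer cells using a gene and less RNA per cell cannot be told apart.

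The promoters of these genes were searched for sites of the E2F factors. The list was chosen by symbol, but it holds genes known to be transcribed under E2F factors. The share with a site is therefore not independent of the choice of genes. RefSeq windows (GRCm38.p6) from 250 bases before to 50 bases after the start were given for 35 of the 41 genes, with Mcm4, Gins1, Gins2, Gins4, Pole and Rfc2 missing. The E2F site was searched on both strands in 4 forms. These were TTCCCGC as the first form, TTCGCGC as the next, TTGCCGC as another and TTGGCGC as the last. A form of it was present in 24 of the 35 genes (68.6%), against 10.9% of the 27025 genes whose windows were searched, which do not cover every chromosome. The CCAAT box, CCAAT on both strands, was in 21 of the 35 (60%, against 41.1%), and the CHR element of late cell cycle genes, TTTGAA on both strands, in 4 (11.4%, against 20.2%). The 6 windows below belong to genes at the ends of the comparisons that follow, and capitals mark the E2F matches on either strand. Chaf1a, Dut and Rrm2 were among the genes lowest in mutant relative to control, Pcna and E2f7 among the highest, and Cdc6 had one of the steepest changes between cell cycle states. The windows are Pcna at chr2:132253131-132253430 on the minus strand, Dut at chr2:125247265-125247564, Chaf1a at chr17:56040166-56040465, Rrm2 at chr12:24708004-24708303, E2f7 at chr10:110745189-110745488 and Cdc6 at chr11:98907901-98908200, the last 5 on the plus strand.
Pcna: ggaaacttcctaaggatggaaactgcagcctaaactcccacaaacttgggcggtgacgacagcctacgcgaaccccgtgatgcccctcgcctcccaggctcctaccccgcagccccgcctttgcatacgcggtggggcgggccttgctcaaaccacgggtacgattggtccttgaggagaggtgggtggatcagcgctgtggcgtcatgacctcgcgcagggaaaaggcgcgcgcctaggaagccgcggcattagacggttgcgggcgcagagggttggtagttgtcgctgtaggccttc
Dut: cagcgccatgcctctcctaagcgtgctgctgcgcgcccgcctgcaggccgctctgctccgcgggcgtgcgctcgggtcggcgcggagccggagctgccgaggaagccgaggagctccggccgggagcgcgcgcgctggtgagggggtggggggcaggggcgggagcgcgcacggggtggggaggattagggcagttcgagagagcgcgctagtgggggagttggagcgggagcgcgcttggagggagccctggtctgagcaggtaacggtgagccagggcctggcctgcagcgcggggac
Chaf1a: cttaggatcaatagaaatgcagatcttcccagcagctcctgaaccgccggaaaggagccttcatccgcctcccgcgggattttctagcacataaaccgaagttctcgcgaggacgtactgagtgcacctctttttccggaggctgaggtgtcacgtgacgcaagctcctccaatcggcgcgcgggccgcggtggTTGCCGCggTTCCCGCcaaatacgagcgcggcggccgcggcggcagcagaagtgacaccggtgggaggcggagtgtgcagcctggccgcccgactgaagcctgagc
Rrm2: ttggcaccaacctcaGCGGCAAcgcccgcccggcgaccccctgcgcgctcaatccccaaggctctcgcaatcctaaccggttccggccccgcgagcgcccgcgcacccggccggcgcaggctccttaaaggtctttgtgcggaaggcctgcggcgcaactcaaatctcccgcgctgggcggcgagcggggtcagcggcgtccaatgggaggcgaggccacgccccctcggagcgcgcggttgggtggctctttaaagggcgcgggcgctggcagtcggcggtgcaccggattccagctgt
E2f7: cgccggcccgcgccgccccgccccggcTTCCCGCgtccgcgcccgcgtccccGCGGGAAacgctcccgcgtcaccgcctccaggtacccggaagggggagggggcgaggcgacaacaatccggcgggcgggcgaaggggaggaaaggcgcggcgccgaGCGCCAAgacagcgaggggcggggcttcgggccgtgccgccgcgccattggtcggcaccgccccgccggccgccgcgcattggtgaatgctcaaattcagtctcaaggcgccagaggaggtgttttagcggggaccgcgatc
Cdc6: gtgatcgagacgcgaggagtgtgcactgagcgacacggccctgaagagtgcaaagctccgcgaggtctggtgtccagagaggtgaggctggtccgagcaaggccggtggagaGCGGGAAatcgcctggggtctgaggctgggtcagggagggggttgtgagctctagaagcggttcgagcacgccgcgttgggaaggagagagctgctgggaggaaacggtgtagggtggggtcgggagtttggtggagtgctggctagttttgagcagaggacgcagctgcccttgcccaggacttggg
The E2f7 window held 3 matches, that of Chaf1a 2, and those of Rrm2 and Cdc6 1 each, whereas none was found in the Pcna and Dut windows. Genes with and without a match overlapped in how they differed between the libraries, with log2 ratios of mutant over control from -0.54 to 0.32 in the 24 genes with a match and from -0.46 to 0.25 in the 11 without one.

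To see whether replication transcripts differed with the genotype, UMIs were summed over all cells of each library. Together the 41 genes made up 2745 CPM (95% interval 2737 to 2753) in control and 2550 CPM (2542 to 2559) in mutant, a log2 ratio of -0.11. Taken gene by gene, the median log2 ratio was -0.13 (median of the lower bounds -0.20, of the upper bounds -0.09), while the median of all 8650 genes whose mean level reached 5 CPM was 0.05. A gene is called higher or lower here from 0.322 on the log2 scale in either direction. None of the 41 genes was called higher in mutant, where 25.5% of all genes were, and 5 were called lower, where 16.3% of all genes were. By sign alone, 31 genes were lower and 10 higher. The replication genes thus lay in a narrow band around a small deficit, and 36 of 41 were called in neither direction. When the totals were taken without mitochondrial and ribosomal genes, every log2 ratio shifted by -0.11, those of all other genes included, to a median of -0.24 for the 41 and -0.06 for all genes. With these totals 9 of the 41 were called lower, where 23.7% of all genes were. Mitochondrial UMIs had a median of 2.04% in control and 1.27% in mutant cells.

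**Figure D1:**
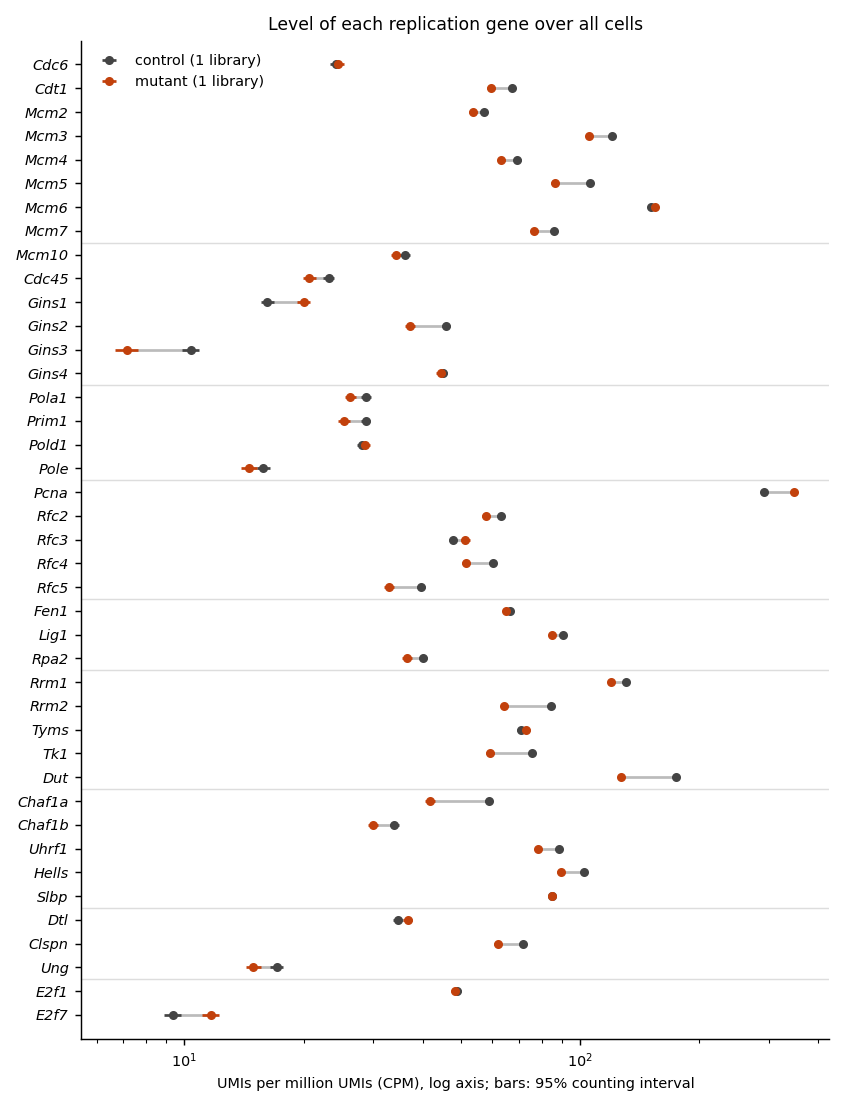
Level of each of the 41 genes over all cells of the control (grey) and mutant (orange) library, in CPM on a log axis, 1 point per library with its 95% counting interval; lines separate the functional groups. Most orange points sit close to the grey ones and to their left, with Gins3, Chaf1a and Dut the farthest left and E2f7, Gins1 and Pcna to the right.

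Among the factors that load the helicase, all 8 were called in neither direction, with log2 ratios from -0.30 to 0.04. Of all genes, 25.5% were called higher and 16.3% lower. Mcm6, a ring subunit, was at 151 CPM in control and 155 CPM in mutant, a log2 ratio of 0.04 (0.01 to 0.06) whose sign turned with totals that lack mitochondrial and ribosomal genes. Its ring partner Mcm5 was at 106 and 86.2 CPM, a log2 ratio of -0.30 (-0.33 to -0.27). Cdt1, which brings the ring to origins, was at 67.2 and 59.4 CPM. Subunits of a complex that acts as 1 ring therefore did not share a ratio, and the intervals of Mcm5 and Mcm6 did not overlap.

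The 4 GINS subunits, which join Cdc45 on the helicase to activate it, had the widest range of ratios of the 9 functional groups. Gins3 was at 10.4 CPM in control and 7.14 CPM in mutant, a log2 ratio of -0.54 (-0.65 to -0.42), the lowest of all 41 genes. Gins1 went the other way, at 16.2 and 20.03 CPM with a log2 ratio of 0.31 (0.23 to 0.38), just short of a call. Gins2 was at 45.8 and 37.1 CPM, a log2 ratio of -0.30, and Gins4 was at 45.1 and 44.4 CPM, with an interval of the ratio that spans 0 (-0.07 to 0.03). Cdc45 and Mcm10, the remaining activators, were at 23.2 and 20.7 CPM and at 36.2 and 34.3 CPM.

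The polymerase genes differed little. Pold1, the catalytic subunit of polymerase delta, was at 28.2 CPM in control and 28.5 CPM in mutant, with an interval that spans 0. Pola1 and Prim1, which lay down primers, had log2 ratios of -0.13 and -0.18, and Pole, of the leading-strand polymerase, one of -0.12.

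Pcna, the ring that tethers polymerases to DNA, was the exception among abundant genes. It was at 292 CPM (289 to 294) in control and 347 CPM (344 to 350) in mutant, a log2 ratio of 0.25 (0.23 to 0.27), while 3 of the 4 clamp loader genes with it on the list lay on the other side of 0. Rfc5 was at 39.6 and 32.9 CPM (log2 ratio -0.27), Rfc4 at 60.1 and 51.4 CPM and Rfc2 at 62.9 and 57.8 CPM. Rfc3 was at 47.6 and 51.3 CPM, a log2 ratio of 0.11 whose sign turned with those other totals. Pcna (chr2:132091082-132095234, minus strand, GRCm39) overlaps the counted gene AV099323 on the opposite strand and has 2 named pseudogenes, so its count is less certain than the depth implies. In all, 13 of the 41 genes overlap a counted gene on the opposite strand, and whether counting used the strand was not stated.

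Lig1, the ligase that seals Okazaki fragments, was at 90.7 CPM in control and 85.0 CPM in mutant. The flap nuclease Fen1 was at 66.4 and 65.1 CPM, and the single-strand binding subunit Rpa2 at 40.1 and 36.5 CPM, so the lagging-strand group stayed within a log2 ratio of -0.13.

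Of the 5 genes that supply nucleotides, 3 were called lower, and the 5 calls among the 41 genes stand beside 16.3% of all genes. Dut, the dUTPase that keeps uracil out of DNA, was at 175 CPM in control and 127 CPM in mutant, a log2 ratio of -0.46 (-0.49 to -0.43). Rrm2, the S-phase subunit of ribonucleotide reductase, was at 84.2 and 64.3 CPM (-0.39), and thymidine kinase Tk1 at 75.4 and 59.3 CPM (-0.35), the call nearest the threshold. The large reductase subunit Rrm1 was at 131 and 120 CPM, and thymidylate synthase Tyms at 70.7 and 73.2 CPM, a ratio whose sign depended on the totals used, and Tyms also has a named pseudogene with which it could share reads.

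Chaf1a, the large subunit of the histone chaperone CAF-1 that deposits histones behind the fork, was at 58.7 CPM in control and 41.8 CPM in mutant, a log2 ratio of -0.49 (-0.54 to -0.44). Its partner Chaf1b was at 33.9 and 29.96 CPM (-0.18). Hells and Uhrf1, which maintain DNA methylation after replication, were at 102 and 89.2 CPM and at 88.5 and 78.2 CPM, and the histone mRNA binding protein Slbp at 84.9 and 85.0 CPM. Chaf1a (chr17:56347303-56379289, plus strand, GRCm39) overlaps the counted gene Ubxn6 on the opposite strand.

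In the group of fork surveillance and repair, Clspn, the adaptor of the replication checkpoint, was at 71.5 CPM in control and 61.9 CPM in mutant. Dtl, which marks Cdt1 for destruction in S phase, was at 34.6 and 36.6 CPM, a difference whose sign turned without mitochondrial and ribosomal genes in the totals, and the uracil glycosylase Ung at 17.1 and 14.9 CPM. Of the E2F factors, the activator E2f1 was at 49.0 and 48.3 CPM, with an interval that spans 0. The repressor E2f7 was at 9.34 and 11.7 CPM, a log2 ratio of 0.318 (0.22 to 0.42), the highest of the 41, just under the threshold of 0.322 and so not called.

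Another 52 genes of the replication machinery served as a second list. Of the 51 at 5 CPM or more, 3 were called higher and 8 lower, beside 25.5% and 16.3% of all genes, with a median log2 ratio of -0.08. The share called lower was thus near that of all genes. The highest were E2f2, an activating E2F (26.8 CPM in control, 40.8 CPM in mutant), the pocket protein Rbl1 (25.7 and 34.9 CPM) and the small polymerase delta subunit Pold4 (55.6 and 72.9 CPM). The lowest were Dctpp1, a dCTP pyrophosphatase (145 and 100 CPM), Orc6 of the origin recognition complex (85.8 and 60.3 CPM) and the histone chaperone Nasp (171 and 124 CPM). Another histone chaperone of this list, Asf1b, was at 48.4 and 52.2 CPM.

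Because replication genes follow the cell cycle, levels were next compared within cells that carried cycling transcripts. Cells in which the UMIs of Mki67, Top2a, Aurka and Cdk1 came to 5 or more formed the cycling gate, and none of these genes is among the 41. The gate held 3819 of 6269 control cells (60.9%, exact binomial interval 59.7 to 62.1) and 2833 of 5663 mutant cells (50.0%, 48.7 to 51.3), with median depths of 27085 and 25990 UMIs. Of the gate genes, Mki67 was itself at 178 CPM in control and 104 CPM in mutant, and Top2a at 261 and 277 CPM, so the gate does not draw the same line in both libraries.

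The gate separated replication transcripts in both. In control cells the 41 genes summed to 1517 CPM outside the gate and 3285 CPM inside it, and 41 of 41 were called higher inside, where 18.3% of all genes were. In mutant cells the sums were 1551 and 3191 CPM and 40 of 41 were called higher, where 15.7% of all genes were. Rrm2 had the highest ratio of inside over outside in each library (log2 2.31 in control and 2.68 in mutant), and Cdt1, the G1-phase helicase loader, the lowest (0.36 and 0.26).

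Within the gate, mutant and control were closer than over all cells. The sum was 3285 CPM (3274 to 3295) in control and 3191 CPM (3179 to 3204) in mutant, and the median log2 ratio over the 41 genes was -0.07, beside 0.06 for all 8686 genes tested. E2f7 (12.2 and 17.03 CPM) and Gins1 (19.8 and 25.96 CPM) were called higher, where 26.4% of all genes were. Chaf1a (69.8 and 51.7 CPM), Gins3 (12.3 and 9.25 CPM) and Dut (213 and 166 CPM) were called lower, where 16.4% of all genes were. The genes at both ends over all cells were therefore at both ends among cycling cells too, with log2 ratios of 0.48 for E2f7 and -0.43 for Chaf1a. Pcna was at 343 CPM in control and 417 CPM in mutant, a log2 ratio of 0.28 (0.26 to 0.30). Rrm2 and Tk1 were closer to 0 than over all cells, at -0.22 and -0.20. Inside the gate the neutrophil markers summed to 220 CPM in control and 2241 CPM in mutant. Over all cells of each library, inside the gate or not, 18 control and 88 mutant cells were rich in them and 3 in each had stromal markers. Without these cells the median inside the gate was -0.07.

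Outside the gate the 41 genes summed to 1517 CPM in control and 1551 CPM in mutant. Of the 39 genes at 5 CPM or more there, 2 were called higher (Pcna and Gins1), where 26.8% of all genes were, and 4 lower (Rrm2, Tk1, Dut and Chaf1a), where 14.8% of all genes were. Pcna stood at 176 CPM in control and 237 CPM in mutant, a log2 ratio of 0.43, and Mcm6 at 95 and 117 CPM. Rrm2 was at 22.4 and 15 CPM, a log2 ratio of -0.58. Opposite signs with both intervals away from 0 were found for Rfc2, with log2 ratios of -0.15 inside and 0.22 outside, and for Tyms, with 0.21 inside and -0.12 outside. Other genes, such as Cdc6, Mcm2 and E2f1, also differed in sign, but with at least 1 interval that spans 0.

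**Figure D2:**
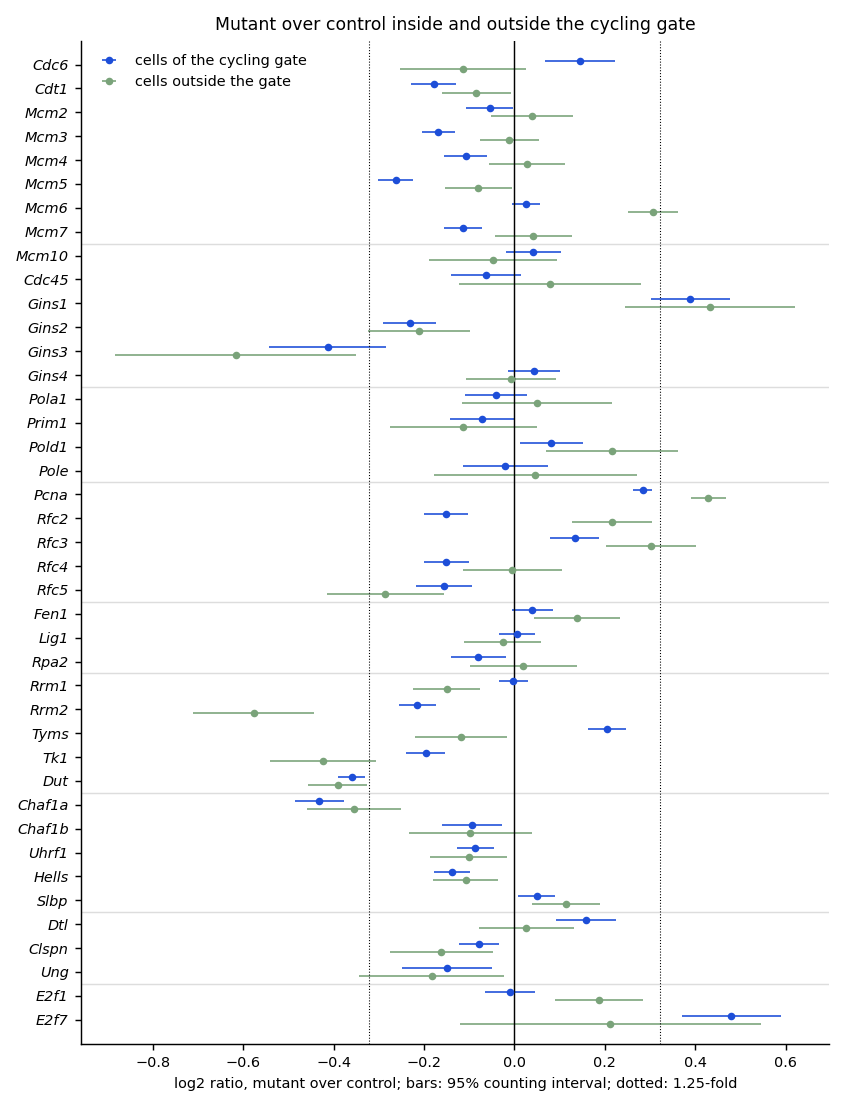
Log2 ratio of mutant over control for each gene in cells of the cycling gate (blue) and outside it (green), with 95% counting intervals; dotted lines mark 0.32 on either side of 0. Pcna and Gins1 lie right of 0 in both sets of cells, Chaf1a, Dut and Gins3 left of 0 in both, and Rfc2 and Tyms are on opposite sides in the 2 sets with both intervals off 0.

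To compare single cells at the same depth, each cell was thinned at random to 5000 UMIs, which left 6101 control and 5312 mutant cells and left out 168 and 351 shallower ones. The median cell carried 13 UMIs of the 41 genes in control and 11 in mutant. The spread was wider in mutant, with an SD over cells of 8.22 in control and 9.21 in mutant, and a range from the 5th to the 95th percentile of 2 to 28 UMIs in control and 1 to 30 in mutant. A share of at least 1% of a cell's UMIs, the level set for calling a cell rich in replication transcripts, was reached by 0 of 6101 control cells, where a limit of 3 counts allows a share of up to 0.0492%, and by 1 of 5312 mutant cells (0.0188%). At lower thresholds the order of the libraries turned. At least 0.2% was reached by 62.4% of control and 54.2% of mutant cells, and at least 0.3% by 43.5% and 37.2%, a difference of -6.29 percentage points (-8.10 to -4.48). At least 0.4% was reached by 24.5% and 23.6%, a difference of -0.89 points (-2.47 to 0.69). At least 0.5% was reached by 10.2% and 12.4%, a difference of 2.20 points (1.02 to 3.38). Thresholds other than 1% and 0.4% were added after seeing the data. Mutant cells were thus more often at either end of the range, and such classes are stretches of a continuous score, not cell types: 861 control and 530 mutant cells lay between 18 and 21 UMIs, next to the 0.4% threshold.

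**Figure D3:**
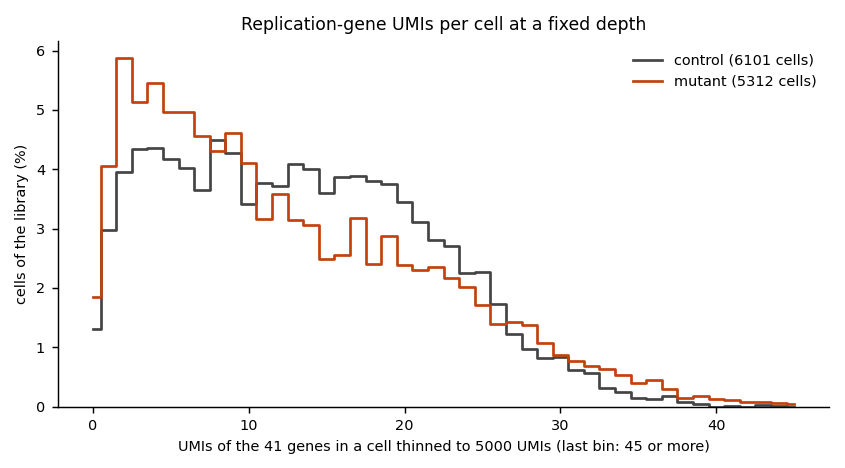
Share of cells (%) by the number of UMIs of the 41 genes in a cell thinned to 5000 UMIs, for 6101 control (grey) and 5312 mutant (orange) cells. The mutant curve is above the control curve below about 8 UMIs, below it between about 11 and 25, and above it again from 30 UMIs on.

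The cycle was then followed with 10 mitotic genes that are not among the 41 and not in the gate. Within cycling-gate cells these 10 summed to 714 CPM in control and 941 CPM in mutant. Of them, 7 were called higher in mutant, where 26.4% of all genes were, and 0 lower, where 16.4% were. A shared bound on their UMIs therefore need not mark the same cycle stage in both libraries. Cells of the cycling gate were thinned to 10000 UMIs and placed in a low (at most 3 mitotic UMIs), a middle and a high (over 9) range, with bounds set over both libraries. The low range held 1501 of 3748 control cells (40.0%) and 1084 of 2691 mutant cells (40.3%), and the high range 1005 control (26.8%) and 973 mutant cells (36.2%). In the high range the mitotic genes summed to 1546 CPM in control and 2024 CPM in mutant, so mutant cells lay further up within it. At the bounds, 662 control and 368 mutant cells carried 3 or 4 mitotic UMIs, and 269 and 131 carried 9 or 10.

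From the low to the high range the 41 genes went from 3639 to 2389 CPM in control and from 3824 to 2006 CPM in mutant. In control, 32 genes were called lower in the high range, where 7% of all genes were, and 0 higher, where 12.3% were. In mutant, 36 were called lower, where 11.2% of all genes were, and 1, Tk1, higher, where 15.7% were. The median log2 ratio of high over low range was -0.67 in control and -1.07 in mutant.

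The 3 genes with the lowest ratio of high over low range were the same in both libraries, namely Ung, Cdc6 and Dtl. Ung went from 32.0 to 3.92 CPM in control (log2 ratio -3.03) and from 30.4 to 2.37 CPM in mutant (-3.68). Cdc6, the helicase loader that acts in G1 phase, went from 41.9 to 8.09 CPM in control and from 48.2 to 6.62 CPM in mutant, and Dtl from 55.2 to 17.1 CPM and from 63.3 to 14.4 CPM. At the other end stood Tk1, from 82.2 to 102 CPM in control and from 67.9 to 88.5 CPM in mutant, with Rfc5, Rrm1 and Tyms also higher in the high range. These 4 genes were higher and the other 37 lower in the high range in each library. Genes of nucleotide supply thus made up 3 of the 4 that stayed high in cells rich in mitotic transcripts, while Dut, of the same group, went from 213 to 173 CPM in control and from 190 to 105 CPM in mutant.

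The ratio of high over low range was steeper in mutant for 36 of the 41 genes, with an interval of the difference below 0 for 30 of them, and shallower with an interval above 0 for 2, Rrm2 and Mcm10. With totals that lack mitochondrial and ribosomal genes it was steeper in mutant for 36 of the 41 as well. How many of all genes were steeper in mutant was not counted. The median log2 ratio of high over low range over all genes was 0.06 in control and 0.04 in mutant. High-range cells had a median of 14 mitotic UMIs in control and 19 in mutant, so the ranges compared were not alike. The widest differences were those of Chaf1b (log2 -1.12 in control and -1.87 in mutant), Lig1 (-0.34 and -1.07) and Hells (-1.15 and -1.87). Lig1 went from 114 to 90.1 CPM in control and from 134 to 63.6 CPM in mutant. Hells went from 152 to 68.2 CPM and from 156 to 42.4 CPM.

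**Figure D4:**
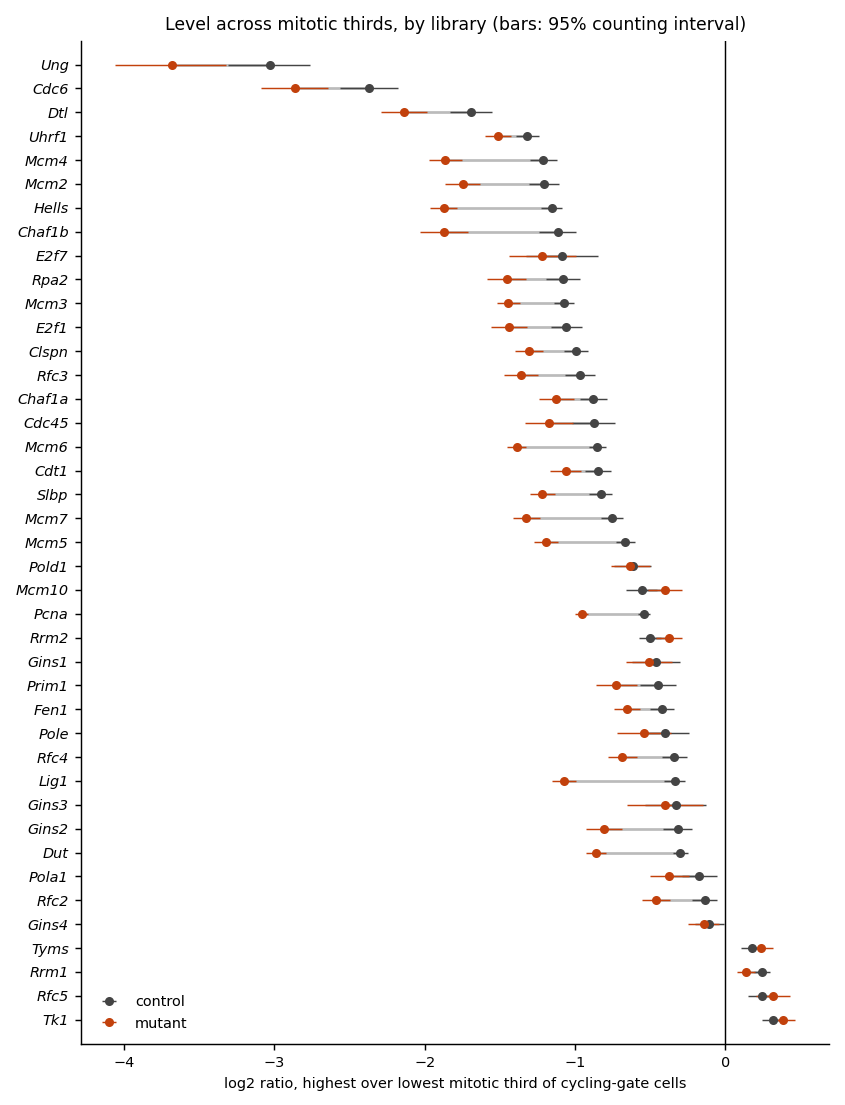
Log2 ratio of the high over the low mitotic range for each gene in control (grey) and mutant (orange) cells of the cycling gate, with 95% counting intervals, ordered by the control value. Ung, Cdc6 and Dtl lie farthest below 0 and Tk1, Rfc5, Rrm1 and Tyms above it in both libraries; 36 of 41 orange points lie left of the grey ones.

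Read across the libraries, replication genes did not differ in the same way at both ends. In the low range the median log2 ratio of mutant over control was 0.06, with 3 genes called higher (Pcna, Gins1 and E2f7), where 25.8% of all genes were, and 2 lower (Chaf1a and Rrm2), where 16.5% were. The sign of this median depended on the processing, at -0.056 with totals that lack mitochondrial and ribosomal genes and -0.085 with all cells in place of the gate. In the middle range the sums were 3595 CPM in control and 3851 CPM in mutant. In the high range the median was -0.27 over the 40 genes at 5 CPM or more there (Ung was below), with 2 called higher (E2f7 and Gins1), where 26.1% of all genes were, and 14 lower, where 18.2% were. For 11 genes the intervals lay above 0 in the low and below 0 in the high range, among them Lig1 (0.23 and -0.50), Mcm6 (0.22 and -0.32) and Cdc6 (0.20 and -0.29). Without mitochondrial and ribosomal genes in the totals this number was 4 (Mcm6, Pcna, Rfc3 and Lig1). How many of all genes had such a pair of intervals was not counted, so neither number can be set against a background. Pcna was at 367 CPM in control and 496 CPM in mutant in the low range, and at 252 and 255 CPM in the high range. E2f7 and Gins1 kept their sign in both ranges, and so did Chaf1a, Gins3 and Dut on the other side. The neutrophil markers moved with these ranges in mutant, from 716 CPM in the low to 2690 CPM in the high range, against 61.0 and 169 CPM in control. Without the cells rich in neutrophil or stromal markers the medians were 0.03 and -0.23, a setting added after seeing the data, as was the comparison of the libraries within these ranges.

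The summed level was also compared in narrower steps of mitotic UMIs. Cycling-gate cells with 0 mitotic UMIs carried 3482 CPM of the 41 genes in control and 3829 CPM in mutant. With 4 to 7 mitotic UMIs the level was 3763 CPM (3724 to 3802) in control and 4236 CPM (4179 to 4294) in mutant. With 8 to 15 it was 2935 CPM (2900 to 2971) and 2910 CPM (2861 to 2960), which overlap. With 16 or more it was 1902 CPM (1861 to 1943) in control and 1694 CPM (1663 to 1726) in mutant, and this step held 11.7% of control and 24.5% of mutant cells of the gate. The steps were scaled by total UMIs only. Totals that lack mitochondrial and ribosomal genes shifted every log2 ratio over the whole cycling gate by -0.11, and the steps were not recomputed with them.

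**Figure D5:**
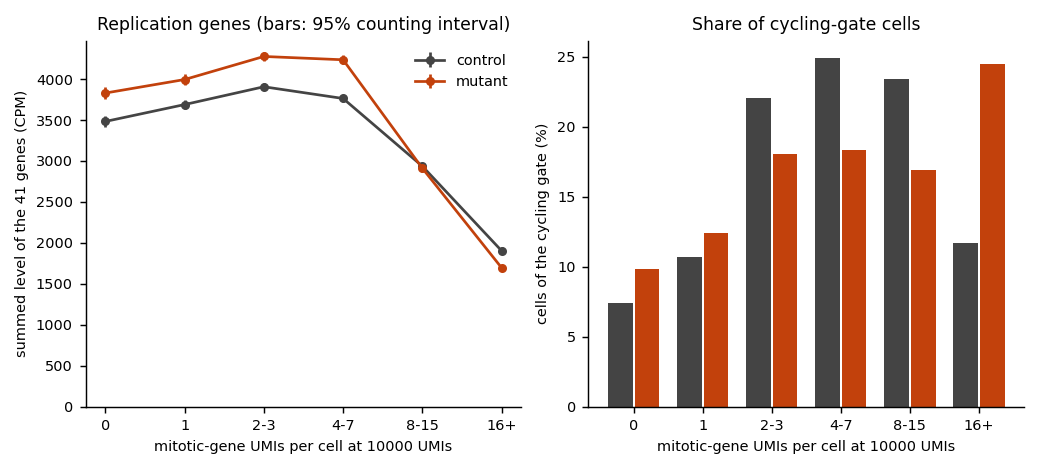
Left, summed level of the 41 genes (CPM, 95% counting interval) in cycling-gate cells by their mitotic-gene UMIs at 10000 UMIs per cell; right, the share of cycling-gate cells (%) in each step, control grey and mutant orange. The mutant level is above control up to 4 to 7 mitotic UMIs and below it at 16 or more, the step with 24.5% of mutant and 11.7% of control cells.

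Cells on the way to OCs were taken as those with at least 3 UMIs over Ctsk, Mmp9 and Dcstamp, genes of bone resorption and cell fusion. This OC gate held 1258 of 6269 control cells (20.1%) and 264 of 5663 mutant cells (4.66%), of which 846 and 160 were also in the cycling gate. The 3 gate genes were themselves lower in mutant, at a sum of 127 CPM in control and 28.9 CPM in mutant, so the gate selects a different fraction of each culture. In OC-gate cells the 41 genes summed to 2819 CPM (2803 to 2835) in control and 2395 CPM (2362 to 2428) in mutant, with a median log2 ratio of -0.27. None was called higher, where 26% of all genes were, and 14 were called lower, where 22.1% were. Gins3 (11.4 and 7.32 CPM), Chaf1a (73.8 and 49.2 CPM) and Dut (193 and 131 CPM) again stood lowest, and Pcna was at 268 CPM in control and 309 CPM in mutant.

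To set OC-gate cells beside the remaining cells of the same library, the cycling gate was held fixed. Among cycling cells of the control library, the 41 genes summed to 3275 CPM without and 3314 CPM with OC transcripts, with a median log2 ratio of 0.05. There, 2 were called higher (Chaf1a and Ung), where 9.83% of all genes were, and 1 lower (E2f7), where 12.5% were. Among cycling cells of the mutant library the sums were 3214 and 2903 CPM, with a median of -0.13, 0 called higher, where 8.04% of all genes were, and 6 lower, where 10.7% were. Chaf1a had the highest ratio in both, from 64.1 to 85.9 CPM in control and from 51.1 to 60.4 CPM in mutant, and E2f7 the lowest, from 13.1 to 9.67 CPM and from 17.5 to 11.7 CPM. The median in mutant changed sign, to 0.02, when the gates were set on cells thinned to 10000 UMIs, where that in control was 0.12. Median depths of cycling cells with OC transcripts were 31164.5 UMIs in control and 33130 UMIs in mutant, above those of cycling cells without them, at 25918 and 25595 UMIs.

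Outside the cycling gate, control cells carried 1540 CPM of the 41 genes without and 1430 CPM with OC transcripts, and mutant cells 1570 and 1161 CPM. In control, 1 of 40 genes at 5 CPM or more was called higher (Chaf1a), where 13.7% of all genes were, and 6 lower, where 13.2% were. In mutant, 0 of 39 were called higher, where 10.6% of all genes were, and 29 lower, where 20.3% were, with medians of -0.09 in control and -0.53 in mutant. Rrm2 was at 15.4 and 6.18 CPM in mutant cells without and with OC transcripts, and Pcna at 185 and 144 CPM in control cells. The mutant value rests on 104 cells with 2819 UMIs of the 41 genes. With gates set on cells thinned to 10000 UMIs, the medians were 0.02 in control and -0.06 in mutant, a setting added after seeing the data. Median depths of these cells with OC transcripts were 23470.5 UMIs in control and 22410 UMIs in mutant, above those of cells without them, at 19115.5 and 17360.5 UMIs.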

How the data were processed

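The files hold unnormalized UMI counts, which the authors made from 10x Genomics 3′ v3.1 libraries with Cell Ranger (version 6.1.0 per the file headers) and which collapse PCR copies of a molecule. GRCm39 is the build named in the labels. The methods also name aggregation, which can equalize depth between libraries, and whether these counts precede it was not stated. Counts at the 3′ end are not divided by length, so levels were compared between cells and not between genes.

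The 41 genes, the other lists and the rules were chosen with earlier results of these data known. Groups came from the genotype label, with 1 library each. Cells with under 500 genes or over 10% mitochondrial UMIs were left out (186 control, 202 mutant). Doublets were scored against simulated ones, 2 per barcode, among 50 neighbours, and the 333 control and 275 mutant cells with the highest scores were kept and then removed as an alternative. UMIs were summed over cells and divided by the total (CPM, 95% exact Poisson intervals), log2 ratios have exact conditional intervals, shares exact Clopper-Pearson intervals, and differences were combined by square-and-add. With no replicates no test was run and there are no p-values. Genes with a mean of 5 CPM or more in the cells compared entered the counts of calls and their background. All 41 genes are given by functional group, with full values for the most abundant of each group and for the 3 highest and 3 lowest ratios over all cells and in the cycling gate. Other genes named were chosen after their values were seen. Scripts were tested on simulated counts and used Python 3.11.15, numpy 2.4.6, scipy 1.17.1, pandas 2.3.3 and scikit-learn 1.9.0. Coordinates are from GENCODE and promoters from RefSeq, and protein sequences were not used here.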

Additional observations from a re-analysis of the deposited data

Results flagged for a closer look

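Each result here had effects of opposite sign in a pair of cell groups or libraries, and none of these differences could be tested with 1 library per genotype. Rfc2, a clamp loader subunit, had a log2 ratio of mutant over control of -0.15 in the cycling gate and 0.22 outside it. Tyms, which makes dTMP, had 0.21 in the cycling gate and -0.12 outside it. Of the 41 genes, only these had opposite signs inside and outside the cycling gate with both counting intervals leaving out 0.

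The median of the 41 genes, mutant over control, was 0.058 in the low and -0.27 in the high mitotic range of cycling-gate cells. The median for cycling cells with OC transcripts over those without was 0.048 in control and -0.13 in mutant. In both pairs the sign was that of a median near 0 on one side.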

How the results depend on the processing

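All comparisons rest on 1 library per genotype, so no replicate could be left out and no paired analysis was possible because each group has a single sample. The median over all cells kept its sign in 8 of 8 alternatives, from -0.24 (totals without mitochondrial and ribosomal genes) to -0.11. The cycling-gate median was negative in 11 of 11, at -0.13 with median-of-ratios scaling, -0.18 without mitochondrial and ribosomal genes, and nearest 0 at -0.02 with every cell weighted alike. The OC-gate median ranged from -0.41 to -0.18 in 10 alternatives. Over all cells, 1 gene was called higher with cells weighted alike and 1 with no filter on cells, where 27.6% and 25.6% of all genes were. The number called lower was 9 without mitochondrial and ribosomal genes, 3 with cells weighted alike and 0 at 1.5-fold, beside 23.7%, 15.4% and 5.94% of all genes. The low-range median was -0.056 without mitochondrial and ribosomal genes and -0.085 with all cells in place of the gate. The high-range median was -0.43 with ranges set within each library. The medians of OC-gate cells over the rest were also taken with gates on cells thinned to 10000 UMIs. Inside the cycling gate they were 0.12 in control and 0.017 in mutant, and outside it 0.019 in control and -0.061 in mutant. The mutant minus control difference in cells rich in replication transcripts, 0.0188 points at 1% of 5000 UMIs, was 0.41 at 2000 UMIs, -6.29 at 0.3%, -0.89 at 0.4% and 2.20 at 0.5%. The causes were not tested. The comparisons of the libraries within mitotic ranges, those of OC-gate cells outside the cycling gate, and the 0.3% and 0.5% thresholds were added after seeing the data. Among the mutant sets used, 104 cells were in the OC gate only and 160 in both gates, and few cells limit their values.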
